A study of Mus musculus with 28 samples.

Results

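The genes of DNA replication and S phase described here number 39 of the 17690 genes in the tables. They were taken by name, from a list made with earlier results of these data known. Each deposited row whose symbol matched 1 of the 39 names was taken, and all 39 were found in all 28 libraries. By role they fall into 8 groups, which are 2 licensing factors, 9 subunits of the replicative helicase, 8 polymerase and primase subunits, the sliding clamp with 5 subunits of its loader, 3 single-strand binding subunits, 2 enzymes that join Okazaki fragments, 4 enzymes of nucleotide supply and 5 genes of the fork, histone supply and repair. Their levels were followed over 7 fluorescence-activated sorts of single cells from the SEZ (subependymal zone) of adult mice, where new neurons form beside the lateral ventricles, and over the cell classes within those sorts.

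All mice were of the strain Bl/6. Day-60 and day-2 tdTomato cells came from Ki67-iresCreER +/ki Rosa-tdTomato +/ki mice, in which a single 5 mg dose of tamoxifen switched on tdTomato in cells that used the Mki67 gene at that time; they were taken after 60 days at an age of 16 to 19 weeks, or after 2 days at 8 to 10 weeks. GLAST/EGF cells were picked by an antibody against GLAST, a glutamate transporter of astroglia, and/or by binding of EGF carrying the dye Alexa647, with no reporter allele named. Ki67-RFP cells came from Ki67-tagRFP ki/ki mice, which carry a red tag on the Ki67 protein of dividing cells. Troy-GFP cells came from Troy-GFPiresCreER +/ki mice and were used by the study to find neural stem cells (NSCs). These 3 sorts had an age of 8 to 10 weeks. A mixed day-60 sort (8 to 19 weeks) joined tdTomato cells of the SEZ or olfactory bulb to cells positive for the oligodendrocyte antigen O4. Its tdTomato cells came from Ki67-iresCreER Rosa-tdTomato mice, 60 days after a single 5 mg dose of tamoxifen. A Prom1/CD24 sort (8 to 10 weeks) used antibodies to 2 surface proteins. Each sort has 4 libraries of 96 wells, as many wells as 1 plate of 384 holds, and the number of mice is not given in the sources used here, so that the spread behind a p-value can be purely technical. A tdTomato label marks former use of Mki67 and not the state at sorting, and each gate sets which cells are compared.

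Before a cell divides it must copy its genome once. In the gap phase before S phase, Cdc6 and Cdt1 load the ring of Mcm2 to Mcm7 onto origins, and at the start of S phase Cdc45 and the GINS subunits join the ring to form the active CMG helicase. Polymerase alpha with primase lays primers, polymerases delta and epsilon extend them while held by the Pcna clamp, and E2F transcription factors switch many of these genes on together at the entry into S phase. In the adult SEZ most NSCs rest outside the cell cycle, while their offspring, the transit-amplifying progenitors and the early neuroblasts, divide often.

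Promoter sequences were available for 32 of the 39 genes, from RefSeq on GRCm38.p6, as 300 bases from 250 before the annotated start to 50 from it on. Both strands were searched for the E2F letters TTTCCCGC, TTTCGCGC, TTTGCCGC and TTTGGCGC, for CCAAT, and for the cell cycle homology region TTTGAA; E2F letters on opposite strands can overlap. At least 1 E2F match stood in 11 of the 32 genes, or 34.4% (95% exact interval 18.6% to 53.2%), against 2.61% of all 27025 genes of the sequence table. In the 150 bases before the start alone, the share was 15.6% of the 32 genes and 1.44% of all genes. The 6 windows below show the helicase genes Mcm5 and Mcm6, the licensing gene Cdc6, the polymerase gene Pola1 and the clamp loader gene Rfc3, all 5 with E2F letters, beside Pola2, which held no E2F match. Being without these letters did not mark out Pola2: 21 of the 32 genes held none, among them Rrm2, Dut, Pcna, Tyms, Slbp, Nasp and Fen1. Each is the 160 bases just before the start on the strand of the gene, and capitals mark E2F and CCAAT letters on either strand.
Mcm5, chr8:75109349-75109508, plus strand: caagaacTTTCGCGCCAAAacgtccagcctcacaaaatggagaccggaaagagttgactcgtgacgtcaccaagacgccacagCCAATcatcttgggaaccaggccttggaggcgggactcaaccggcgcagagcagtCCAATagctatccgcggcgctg
Mcm6, chr1:128359706-128359865, minus strand: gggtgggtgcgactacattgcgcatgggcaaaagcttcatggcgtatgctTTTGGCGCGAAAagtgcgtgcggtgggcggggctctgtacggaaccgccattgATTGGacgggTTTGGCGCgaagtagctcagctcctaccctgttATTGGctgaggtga
Cdc6, chr11:98907991-98908150, plus strand: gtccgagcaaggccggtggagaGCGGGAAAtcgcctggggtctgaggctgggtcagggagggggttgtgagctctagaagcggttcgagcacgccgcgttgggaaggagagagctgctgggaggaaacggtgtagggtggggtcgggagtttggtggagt
Pola1, chrX:93632156-93632315, minus strand: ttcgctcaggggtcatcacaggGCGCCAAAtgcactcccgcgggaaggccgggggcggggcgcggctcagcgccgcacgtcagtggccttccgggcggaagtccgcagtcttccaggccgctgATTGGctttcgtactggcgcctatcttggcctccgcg
Rfc3, chr5:151651209-151651368, minus strand: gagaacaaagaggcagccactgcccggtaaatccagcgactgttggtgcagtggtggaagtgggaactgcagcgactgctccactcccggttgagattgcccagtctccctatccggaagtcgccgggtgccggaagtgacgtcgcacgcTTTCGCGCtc
Pola2, chr19:5964207-5964366, minus strand: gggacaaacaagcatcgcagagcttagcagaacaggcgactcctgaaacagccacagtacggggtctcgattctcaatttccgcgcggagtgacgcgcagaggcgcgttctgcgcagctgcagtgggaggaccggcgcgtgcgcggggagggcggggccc

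With the start counted as base 0, the E2F letters of Mcm6 began at -110, -106 and -47, those of Mcm5 at -153 and -149, those of Cdc6 and of Pola1 at -138, and those of Rfc3 at -10 and, past the printed window, at 0. The remaining genes with an E2F match were Cdt1, Lig1, Mcm3, Mcm7, Pold1 and Pold3. CCAAT letters stood in 62.5% of the 32 genes and in 41.1% of all genes. TTTGAA stood in 15.6% of the 32 genes, namely Cdc45, Fen1, Mcm2, Nasp and Pold2, and in 20.2% of all genes. In the promoters of 45 genes of G2 and mitosis the shares ran the other way, with 2.22% for E2F and 73.3% for TTTGAA. A match is a description of letters and says nothing about binding.

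Of 2688 wells, 1789 held at least 1000 estimated transcripts and were kept as cells, 11 to 89 per library, and library totals ran from 43149 to 572793 transcripts. The same 96 well barcodes occur in all libraries, so a shared barcode does not mark a shared cell. Mki67 itself stood at 0 CPM in all day-60 libraries, at 220 ± 23.01 in day-2 tdTomato, 522 ± 114 in GLAST/EGF, 640 ± 83.5 in Ki67-RFP and 228 ± 70.4 in Troy-GFP (SD, n = 4). Troy-GFP and GLAST/EGF held 290 to 422 CPM of Y-linked transcripts and all other sorts 0, so sex and sort cannot be told apart when either is compared with another sort. Libraries 1 and 2 of Troy-GFP were read on 1 flow cell with libraries 3 and 4 of GLAST/EGF, the other libraries with a named flow cell on a second, and none is named for day 2. A cluster of 34 NSC-like cells led by intestinal genes came from Troy-GFP library 2 (24 cells), GLAST/EGF library 4 (8) and GLAST/EGF library 3 (2).

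The summed level of the 39 genes separated the sorts (plot of the sum by sort). Levels are in CPM, a gene's transcripts brought to a common library total, with totals scaled by trimmed mean of M values; a level counts molecules near the 3′ end and was not divided by gene length. The sum was 755 ± 78.7 CPM in day-60 tdTomato, 7460 ± 392 in day-2 tdTomato, 6387 ± 459 in GLAST/EGF, 8575 ± 334 in Ki67-RFP and 2765 ± 498 in Troy-GFP. The mixed day-60 sort held 898 ± 74.2 and Prom1/CD24, with 11 to 20 cells per library, 3728 ± 1464. With each cell thinned to 1000 transcripts, the sum was 4877 CPM in day-2 tdTomato, 7291 in Ki67-RFP, 2051 in Troy-GFP and 1885 in Prom1/CD24, which then lay below Troy-GFP. Each Ki67-RFP library (8159 to 8967) lay above each day-2 library (6932 to 7762), while day-2 and GLAST/EGF libraries (6054 to 7055) overlapped, and no library of the other 4 sorts reached either of them. The sum took up 0.848% of all transcripts in Ki67-RFP, the highest share, and 0.0698% in day-60 tdTomato, the lowest. Of the 39 genes, 24 had their highest mean in Ki67-RFP, 10 in day-2 tdTomato and 5 in GLAST/EGF. A sum over a library mixes its cells, so that fewer cells of a type and less RNA per cell cannot be told apart in it.

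**Figure D1:**
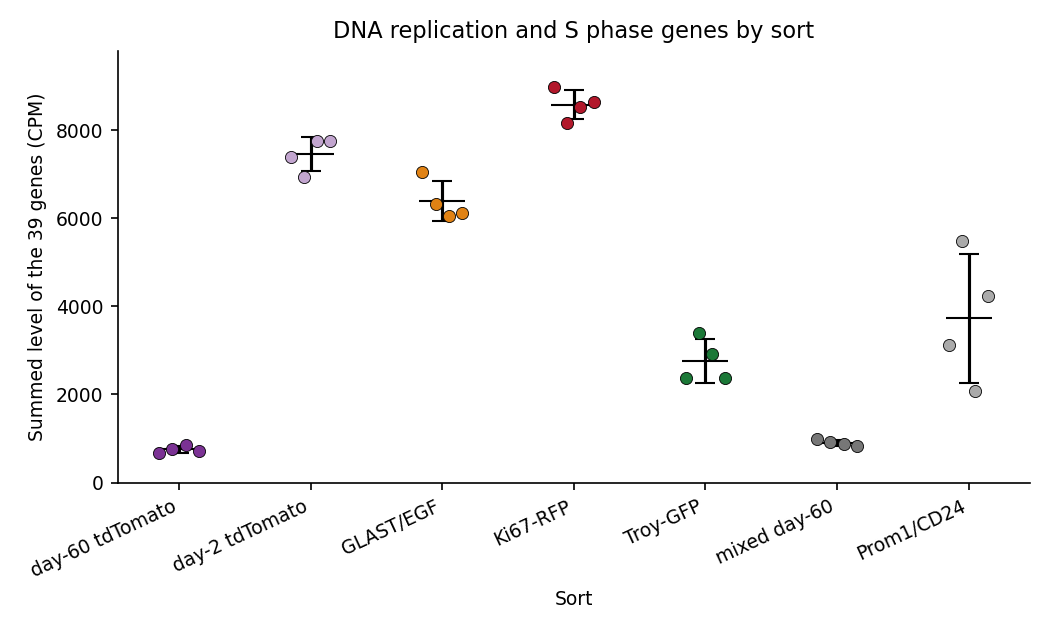
Summed level of the 39 genes (CPM) in each library, by sort; points are libraries, bars the mean and SD of 4. Ki67-RFP libraries sit between 8159 and 8967 and day-60 tdTomato libraries between 670 and 856.

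Cdt1, which brings the Mcm ring to origins and is removed once S phase begins, held 6.54, 2.20, 0 and 6.48 CPM in the 4 day-60 libraries and 82.6, 67.6, 118 and 125 in day-2 tdTomato. It held 134, 145, 111 and 97.9 CPM in GLAST/EGF, 181, 152, 155 and 149 in Ki67-RFP, and 24.9, 32.4, 37.3 and 38.2 in Troy-GFP. No Ki67-RFP library overlapped another of these sorts, and GLAST/EGF and day-2 libraries overlapped. Cdc6, its partner in loading, was highest in GLAST/EGF at 66.9 ± 4.71 CPM, with 61.5 ± 15.6 in Ki67-RFP, a difference within their spread.

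Mcm2, a subunit of the helicase ring, held 0, 4.40, 4.62 and 0 CPM in day-60 libraries and 86.5, 125.6, 140 and 154 in day-2 tdTomato. Its levels were 158, 207, 165 and 159 CPM in GLAST/EGF, 246, 236, 240 and 234 in Ki67-RFP, and 34.6, 55.3, 77.6 and 50.2 in Troy-GFP. All Ki67-RFP libraries lay above all GLAST/EGF libraries, which lay above all day-2 libraries, and Troy-GFP followed below. The 9 helicase genes summed to 60.9 ± 8.95 CPM in day-60 tdTomato, 1410 ± 73.01 in day-2 tdTomato, 1419 ± 95.1 in GLAST/EGF, 1931 ± 95.4 in Ki67-RFP and 540 ± 94.9 in Troy-GFP. Mcm7 was the most abundant of them in Ki67-RFP (491 ± 21.8 CPM) and Gins2, of the GINS complex, the least (51.6 ± 13.8).

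Pole, the catalytic subunit of polymerase epsilon that copies the leading strand, held 0, 13.2, 6.93 and 4.32 CPM in day-60 libraries and 90.4, 63.8, 41.8 and 92.9 in day-2 tdTomato. It held 112, 77.9, 67.1 and 104 CPM in GLAST/EGF, 133, 152, 106 and 142 in Ki67-RFP, and 24.9, 57.5, 24.9 and 31.04 in Troy-GFP. Ki67-RFP and GLAST/EGF overlapped for this gene, as did day-2 tdTomato and Troy-GFP. Pola2, the accessory subunit of polymerase alpha, stood apart from its 7 fellow polymerase and primase genes: it held 182 ± 44.5 CPM in day-60 tdTomato, 199 ± 29.4 in day-2 tdTomato, 220 ± 50.04 in GLAST/EGF, 204 ± 18.2 in Ki67-RFP and 217 ± 69.1 in Troy-GFP. Pola1, the catalytic subunit of the same polymerase, held 14.3 ± 7.57 CPM in day-60 tdTomato, 133 ± 10.1 in day-2 tdTomato, 108 ± 5.57 in GLAST/EGF, 137 ± 22.7 in Ki67-RFP and 41.4 ± 5.84 in Troy-GFP.

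Pcna, the clamp that tethers polymerases to DNA, was the most abundant of the 39 genes in 4 of these 5 sorts. It held 91.3, 96.98, 134 and 117 CPM in day-60 libraries, 1295, 1268, 1286 and 1424 in day-2 tdTomato, and 1486, 1319, 1227 and 1278 in GLAST/EGF. It reached 1753, 1536, 1592 and 1732 CPM in Ki67-RFP and 401, 681, 523 and 355 in Troy-GFP. Ki67-RFP lay above all other sorts without overlap, and day-2 and GLAST/EGF libraries overlapped. In day-60 tdTomato, Pola2 stood above Pcna.

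Rfc3, a subunit of replication factor C, which opens the clamp and loads it, held 13.1, 8.80, 16.2 and 21.7 CPM in day-60 libraries and 141, 135, 156 and 128 in day-2 tdTomato. It held 139, 133, 145 and 91.5 CPM in GLAST/EGF, 149, 164, 170 and 185 in Ki67-RFP, and 26.9, 38.04, 52.3 and 26.3 in Troy-GFP. The day-2, GLAST/EGF and Ki67-RFP libraries all lay above Troy-GFP without overlap. Rfc1, the large subunit of the loader, differed less between sorts: it held 75.8 ± 5.36 CPM in day-60 tdTomato, 69.1 ± 9.11 in day-2 tdTomato, 154 ± 28.9 in GLAST/EGF, 144 ± 5.56 in Ki67-RFP and 105 ± 17.7 in Troy-GFP.

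Rpa3, the small subunit of replication protein A, which coats single-stranded DNA, held 6.52, 17.6, 9.24 and 10.8 CPM in day-60 libraries and 122, 103, 134 and 121 in day-2 tdTomato. It held 27.1, 41.5, 64.7 and 43.6 CPM in GLAST/EGF, 44.1, 47.7, 36.4 and 71.6 in Ki67-RFP, and 15.3, 20.9, 7.44 and 9.54 in Troy-GFP. The day-2 libraries stood above all other libraries of these sorts. Its partner Rpa2 had another order, with 129 ± 11.7 CPM in day-2 tdTomato against 237 ± 32.3 in Ki67-RFP.

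Fen1, the flap nuclease that trims Okazaki fragments, held 8.70, 2.20, 2.31 and 2.16 CPM in day-60 libraries and 66.6, 88.6, 86.5 and 46.4 in day-2 tdTomato. It held 84.2, 58.2, 34.5 and 78.97 CPM in GLAST/EGF, 88.3, 69.7, 102 and 91.5 in Ki67-RFP, and 23.03, 30.5, 32.3 and 9.54 in Troy-GFP. The day-2, GLAST/EGF and Ki67-RFP libraries overlapped one another and all lay above the Troy-GFP libraries. Lig1, the ligase that seals the fragments, held 147 ± 10.4 CPM in day-2 tdTomato, 213 ± 45.3 in GLAST/EGF and 324 ± 52.1 in Ki67-RFP.

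Rrm2, the S phase subunit of ribonucleotide reductase, which makes deoxyribonucleotides, spanned a wide range. It held 2.17, 0, 2.31 and 0 CPM in day-60 libraries, 899, 727, 1008 and 920 in day-2 tdTomato, and 348, 343, 214 and 251 in GLAST/EGF. It held 586, 569, 541 and 589 CPM in Ki67-RFP and 67.9, 131, 134 and 74.4 in Troy-GFP, and was at 0 in all 4 mixed day-60 libraries. These 5 sorts did not overlap, with day-2 tdTomato highest, although thinned to 1000 transcripts per cell the fold change of day 2 over Ki67-RFP was -0.19 on the log2 scale and not called. The 4 nucleotide supply genes together (Rrm1, Rrm2, Tyms, Dut) summed to 1799 ± 207 CPM in day-2 tdTomato and 1372 ± 51.3 in Ki67-RFP.

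Tipin, of the complex that steadies stalled forks, held 26.1, 8.79, 13.9 and 8.64 CPM in day-60 libraries and 201, 135, 174 and 147 in day-2 tdTomato. It held 89.5, 108, 77.9 and 97.9 CPM in GLAST/EGF, 145, 144, 170 and 149 in Ki67-RFP, and 36.5, 53.2, 49.7 and 43.04 in Troy-GFP. Ki67-RFP and day-2 libraries overlapped and lay above all GLAST/EGF libraries. Among the histone genes of the group, Nasp, a histone chaperone, held 551 ± 24.4 CPM in Ki67-RFP and Slbp, which binds the stem-loop of histone messages, 310 ± 33.3. Ung, which removes uracil from DNA, and Chaf1a, which places histones behind the fork, were the scarcest there at 53.2 ± 24.1 and 55.1 ± 8.58 CPM.

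**Figure D2:**
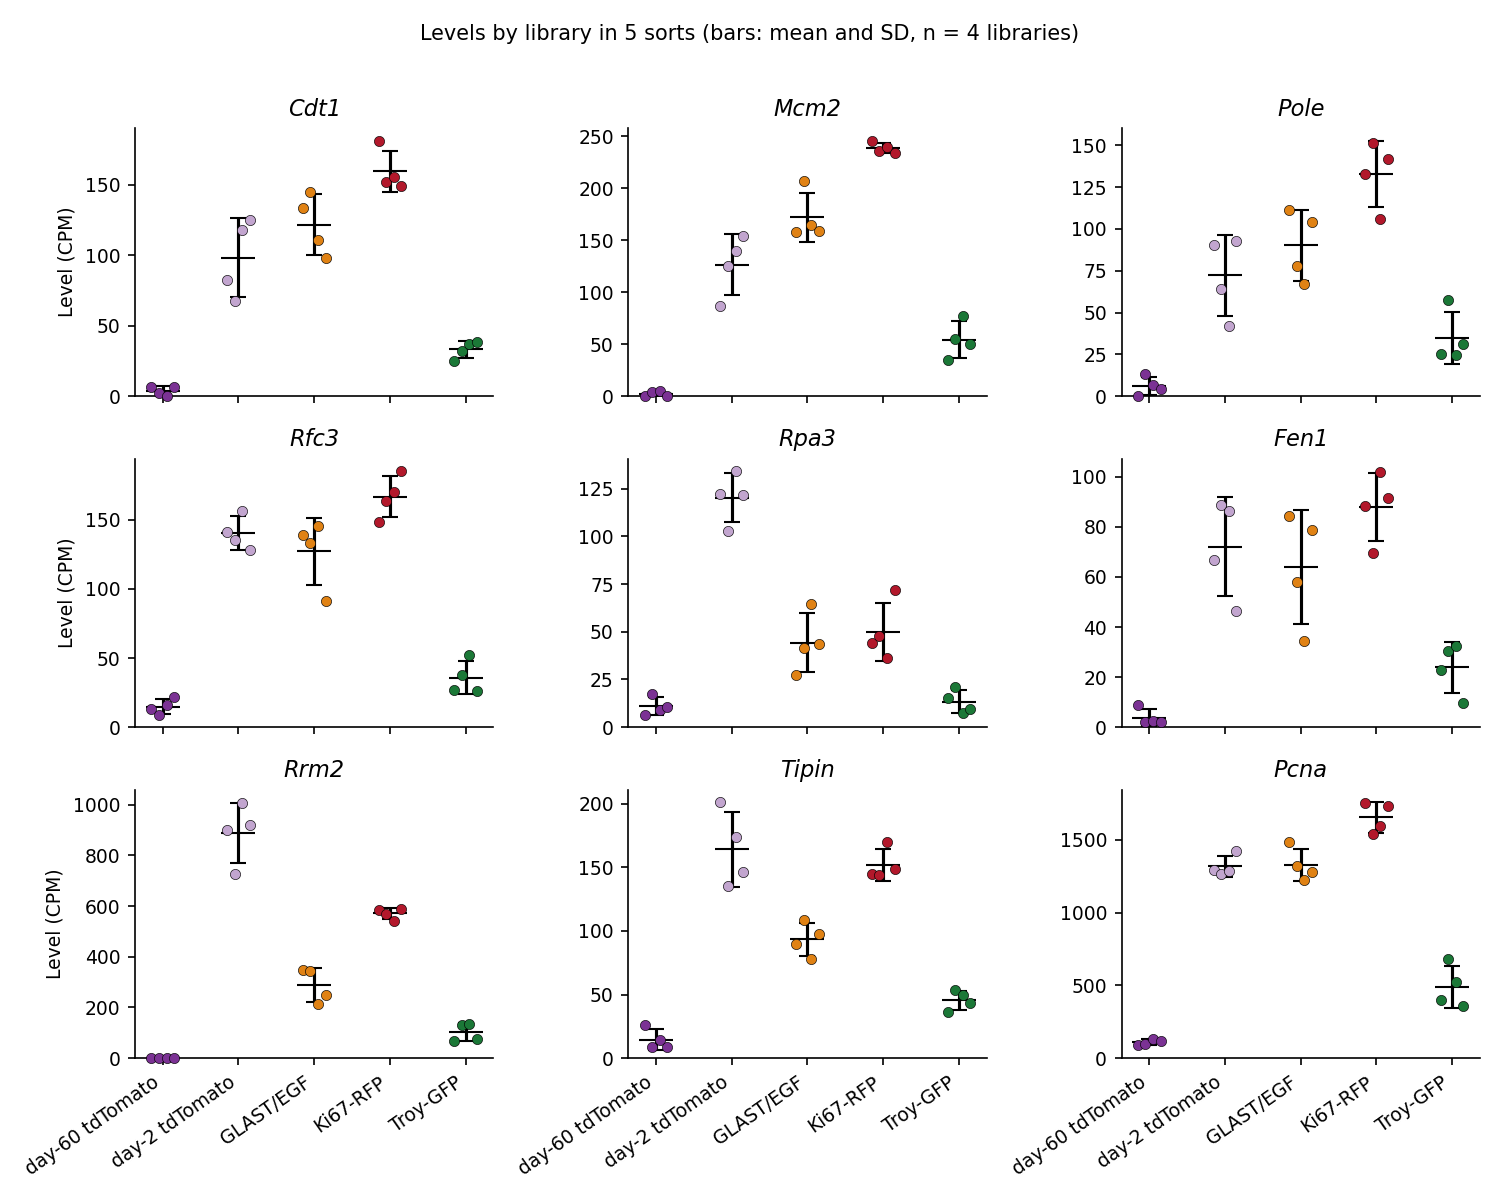
Level (CPM) of 9 of the 39 genes in the libraries of 5 sorts; points are libraries, bars the mean and SD of 4. Rrm2 and Rpa3 are highest in day-2 tdTomato, for Rrm2 not so once cells are thinned to 1000 transcripts (log2 fold change -0.19 against Ki67-RFP, not called), while Cdt1, Mcm2 and Pcna are highest in Ki67-RFP.

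Ki67-RFP cells were set against Troy-GFP cells to compare sorted dividing cells with the sort used for NSCs. Of the 39 genes, 37 rose in Ki67-RFP (adjusted p below 0.05, limma voom with Benjamini-Hochberg adjustment over all genes, n = 4 libraries each), among 60.4% of all genes called in either direction and 31.3% called higher. Their median log2 fold change was 1.71, against 0.06 over all genes tested. Rrm2 changed most, by 2.55 ± 0.17 (log2 fold change ± SE, adjusted p = 1.3e-12), and Dut, which removes dUTP from the nucleotide pool, by 2.10 ± 0.18. Among licensing and helicase genes Cdt1 rose by 2.26 ± 0.22, Cdc6 by 1.11 ± 0.29, Mcm2 by 2.20 ± 0.19 and Mcm5 by 2.19 ± 0.17. Rfc3 rose by 2.25 ± 0.22 and Pcna by 1.79 ± 0.13. Pole rose by 1.95 ± 0.25 and Pold1, the catalytic subunit of polymerase delta, by 1.72 ± 0.26. Rpa3 rose by 1.82 ± 0.39 and Rpa2 by 1.36 ± 0.16, Fen1 by 1.92 ± 0.30 and Lig1 by 1.74 ± 0.18, and Tipin and Slbp both by 1.73 (SE 0.19 and 0.17).

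The 2 genes not called were Pola2, with -0.05 ± 0.18 (adjusted p = 0.833), and Rpa1, the large subunit of replication protein A, with 0.37 ± 0.24 (adjusted p = 0.188). Libraries did not overlap for 35 of the 39 genes. The share without overlap over all genes was not counted, so this count does not set the 39 genes apart. The call of Pold3, a small subunit of polymerase delta (0.59 ± 0.22), was lost without Ki67-RFP library 1 or 4 or without Troy-GFP library 3, with limma adjusted p of 0.0702 to 0.0710. Of 45 other replication genes tested, 41 rose (median 1.55), led by Dscc1 (2.56), E2f8 (2.39) and E2f7 (2.36). Of 51 genes of G2 and mitosis, 50 rose with a median of 2.34, led by Ccnb1 (3.38), Birc5 (3.31) and Plk1 (3.24).

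Markers of several cell types moved with this difference. All 15 NSC markers fell, with sums of 1042 to 1962 CPM in Ki67-RFP and 42859 to 44923 in Troy-GFP, and all 14 neuroblast markers rose, with sums of 9019 to 11070 CPM in Ki67-RFP and 1006 to 1757 in Troy-GFP. Of 11 microglia markers 7 were tested and rose, with sums of 484 to 869 CPM in Ki67-RFP and 45.9 to 64.5 in Troy-GFP, where C1qb, Aif1 and Cd74 were at 0. Of 10 endothelial markers 6 were tested and fell, with sums of 0 to 12.5 CPM in Ki67-RFP, 4 markers being at 0 there, and 658 to 1123 CPM in Troy-GFP. Their part in the result was not tested. Without the 34 cells led by intestinal genes 37 genes were called, against 58.5% of all genes in that fit. With the 2 Troy-GFP libraries of the flow cell that also held Ki67-RFP, 35 were called, against 49.7% of all genes.

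GLAST/EGF cells were then set against Troy-GFP cells, 2 sorts that both hold astroglial cells and share sex. Of the 39 genes, 35 rose in GLAST/EGF, among 30.1% of all genes called and 15.3% called higher, with a median log2 fold change of 1.29 against 0.04 over all genes (limma voom, n = 4 libraries each). Cdt1 rose by 1.85 ± 0.24 and Cdc6 by 1.27 ± 0.27, Mcm2 by 1.72 ± 0.21 and Mcm3 by 1.59 ± 0.21. Pold1 rose by 1.501 ± 0.28 and Pole by 1.38 ± 0.28, Rfc3 by 1.84 ± 0.25 and Pcna by 1.47 ± 0.15. Rpa3 rose by 1.65 ± 0.42 and Rpa2 by 0.80 ± 0.17, Fen1 by 1.39 ± 0.37 and Lig1 by 1.11 ± 0.21. Rrm2 rose by 1.52 ± 0.22 and Dut by 1.47 ± 0.20, Ung by 1.34 ± 0.34 and Nasp by 1.33 ± 0.15. The 4 genes not called were Pola2 (0.05, adjusted p = 0.876), Pold2 (0.73, 0.199), Rfc2 (0.45, 0.122) and Rfc4 (1.08, 0.0876), the last called without GLAST/EGF library 1.

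Libraries did not overlap for 33 of the 39 genes, with the share over all genes not counted. Calls of Pold3, Rfc1 and Rpa1 each ended in 5 or more of the 8 fits that left out 1 library, and that of Rfc5 without Troy-GFP library 1, with limma adjusted p up to 0.132. Within the flow cell that held GLAST/EGF libraries 1 and 2 and Troy-GFP libraries 3 and 4, 24 of 38 genes tested were called, all higher, with a median of 1.46, against 14.2% of all genes called in that fit. Of 42 other replication genes 35 rose (median 1.19), led by Pole3 (2.07), E2f2 (1.93) and Brca1 (1.89). Of 47 genes of G2 and mitosis 34 rose and 1 fell, Arl6ip1 (-0.36 ± 0.13, named after its value was seen), with a median of 1.06.

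All 15 NSC markers fell here too, with sums of 16535 to 20270 CPM in GLAST/EGF and 42859 to 44923 in Troy-GFP. Of 14 neuroblast markers 13 were tested and 10 rose, with sums of 3078 to 4164 CPM in GLAST/EGF and 1006 to 1757 in Troy-GFP. Of 10 endothelial markers 6 were tested and fell, with sums of 5.41 to 719 CPM in GLAST/EGF and 658 to 1123 in Troy-GFP. Whether these markers bear on the result was not tested. Without the cells led by intestinal genes 34 genes were called, against 28.1% of all genes, Rpa1 having lost its call (limma adjusted p = 0.0647).

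GLAST/EGF and Ki67-RFP were compared directly, which shares samples with both comparisons above. Of the 39 genes 20 fell in GLAST/EGF and none rose, among 36.4% of all genes called and 18.4% called lower, with a median of -0.41 against -0.04 over all genes (limma voom, n = 4 libraries each). All 4 nucleotide supply genes fell, Rrm2 by 1.03 ± 0.13 (log2 fold change -1.03, adjusted p = 1.01e-06) and Tyms, which makes thymidylate, by 0.80 ± 0.18. The fold changes were -0.74 ± 0.13 for Mcm5 and -0.65 ± 0.12 for Mcm7, -0.57 ± 0.19 for Pole and -0.37 ± 0.14 for Prim1, a primase subunit. Further values were -0.62 ± 0.20 for Rfc2 and -0.42 ± 0.16 for Rfc3, -0.55 ± 0.15 for Rpa2, -0.62 ± 0.15 for Lig1, -0.41 ± 0.16 for Cdt1, -0.85 ± 0.14 for Slbp and -0.71 ± 0.16 for Tipin. Cdc6 (0.16 ± 0.22) and Mcm3 (0.17 ± 0.17) were among the 19 genes not called.

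Libraries did not overlap for 18 of the 39 genes, with the share over all genes not counted. Of the 20 calls 12 held in every fit that left out 1 library; those of Cdc45, Cdt1, Mcm6, Pole, Prim1, Rfc2, Rfc3 and Rrm1 were lost in at least 1, and leaving out any library but GLAST/EGF library 1 ended at least 3 of them. Within the flow cell that held GLAST/EGF libraries 1 and 2 and all Ki67-RFP libraries, 7 of the 39 genes (17.9%) were called, all lower, against 23.2% of all genes called in that fit and 9.65% called lower. The genes of G2 and mitosis lay lower in GLAST/EGF by more: 46 of 51 fell, with a median of -1.27, led by Ccnb1 (-2.07), Cdc25c (-2.05) and Cks2 (-1.92). Of 46 other replication genes 17 fell and 1 rose, Hells (0.69 ± 0.18), a chromatin remodeler named after its value was seen. NSC markers rose (15 of 15, sums of 16535 to 20270 CPM in GLAST/EGF and 1042 to 1962 in Ki67-RFP), neuroblast markers fell (14 of 14, 3078 to 4164 CPM in GLAST/EGF and 9019 to 11070 in Ki67-RFP), and 7 of 8 microglia markers tested, of 11, fell (19.4 to 586 CPM in GLAST/EGF, Cd74 at 0, and 484 to 869 in Ki67-RFP). Their part in the result was not tested.

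The day-60 and day-2 tdTomato sorts compare the offspring of labelled cells late and soon after labelling. Of the 39 genes 36 were tested and 34 fell at day 60, among 67.5% of all genes called and 34% called lower, with a median log2 fold change of -3.67 against -0.04 over all genes (limma voom, n = 4 libraries each). A gene was kept when 4 libraries passed the minimum, so genes near 0 at day 60, such as Rrm2, Cdc45, Rfc4 and Mcm2, entered through day 2 alone. A fall was the only direction open to such genes, which count among the 34 and in the median. Rrm2 had 2.00 transcripts over the 4 day-60 libraries and 1058 over the 4 day-2 libraries. Relative to scaled library totals, as for the next 2 genes, this was 813-fold lower, with a counting interval of 224 to 6720. Cdc45 had 1.00 transcript at day 60 and 125 at day 2 (192-fold lower, 33.8 to 7645), and Rfc4 had 2.00 at day 60 and 83.4 at day 2 (63.8-fold lower, 17.1 to 535). Intervals cover counting error only. Mcm2, with 4.01 transcripts over the day-60 libraries, had a fitted log2 change of -5.69 ± 0.54, which rests on those few. With 7 or more transcripts at day 60, Dut changed by -5.36 ± 0.35, Cdt1 by -4.68 ± 0.54, Fen1 by -4.05 ± 0.49, Lig1 by -4.00 ± 0.35 and Slbp by -3.83 ± 0.31. Nasp, Pole and Prim1 each changed by -3.75 (SE 0.24, 0.61 and 0.35), Pcna by -3.59 ± 0.15, Rpa3 by -3.40 ± 0.35, Cdc6 by -3.27 ± 0.54 and Rpa2 by -2.73 ± 0.28.

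Pola2 (-0.16 ± 0.18, adjusted p = 0.467) and Rfc1 (0.11 ± 0.21, adjusted p = 0.639) were the 2 genes tested and not called, and their libraries overlapped. For the other 37 genes, with the share over all genes not counted, no day-60 library reached a day-2 library. This includes the 3 genes too low to test: Pold1, with means of 6.07 CPM at day 60 and 35.4 at day 2, Chaf1a, with 2.24 at day 60 and 38.8 at day 2, and Ung, with 0.577 at day 60 and 28.6 at day 2. All 34 calls held in each of the 8 fits that left out 1 library. Of 36 other replication genes 32 fell and 1 rose, Brip1 (0.65 ± 0.21), and of 51 genes of G2 and mitosis 48 fell and 1 rose, Dlgap5 (0.62 ± 0.23), both named after their values were seen. The genes of G2 and mitosis had a median of -5.97 and was led by Top2a (-9.50), Pbk (-8.41) and Cdk1 (-8.28). All 15 NSC markers rose (sums of 53801 to 57802 CPM at day 60 and 522 to 4582 at day 2) and all 14 neuroblast markers fell (210 to 612 CPM at day 60 and 10732 to 13100 at day 2). Age also differed, and its part, like that of the markers, cannot be told apart from the time since labelling.

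Day-2 tdTomato marks cells by a label given 2 days earlier, whether or not they still divided at sorting, and Ki67-RFP by the protein itself. Thinned to 1000 transcripts, 34.1% of day-2 and 58.4% of Ki67-RFP cells held at least 5 transcripts of the 39 genes. Of the 39 genes 4 rose and 12 fell at day 2, among 28.1% of all genes called, 14.2% higher and 14% lower, with a median of -0.23 against 0.02 over all genes (limma voom, n = 4 libraries each). The genes that rose were Rpa3 (1.30 ± 0.22, adjusted p = 6.28e-05), Rfc4 (0.69 ± 0.24, 0.0305), Rrm2 (0.64 ± 0.10, 4.72e-05) and Dut (0.41 ± 0.12, 0.0109). When each cell was thinned to 1000 transcripts, so that all cells weigh alike, the direction turned for Rrm2 (-0.19, adjusted p = 0.514) and Dut (-0.42, adjusted p = 0.222), neither called, and Rpa3 and Rfc4 were too low to test. Median transcripts per cell were 3817 in day-2 tdTomato and 6156 in Ki67-RFP.

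The largest falls at day 2 were those of Pold1 (-1.21 ± 0.28), Lig1 (-1.12 ± 0.16, adjusted p = 6.17e-06), Rfc1 (-1.03 ± 0.19), Pole (-0.96 ± 0.23), Mcm2 (-0.92 ± 0.16), Rpa2 (-0.85 ± 0.16), Rfc5 (-0.85 ± 0.26) and Mcm5 (-0.82 ± 0.15). Cdt1 (-0.70 ± 0.19), Mcm6 (-0.46 ± 0.13), Mcm7 (-0.43 ± 0.11) and Pcna (-0.33 ± 0.08) fell as well. In this fit subunits of 1 complex differed in direction: Rpa3 rose and Rpa2 fell, and Rfc4 rose while Rfc1 and Rfc5 fell. Genes that rose made up 10.3% of the 39, against 14.2% of all genes called higher. Rpa3 and Rfc4 were too low to test once cells were thinned. Libraries did not overlap for 15 of the 39 genes, with the share over all genes not counted. The call of Rfc4 was lost without Ki67-RFP library 1 or 4 or day-2 library 1, 3 or 4 (limma adjusted p 0.0558 to 0.0937), and that of Rfc5 without day-2 library 3 (0.111).

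Of 45 other replication genes 9 fell at day 2, led by E2f2 (-2.49), Chaf1b (-1.87) and Timeless (-1.50), and 4 rose, among them Cdc7 (0.78), Asf1b (0.61) and Cdca7 (0.29), named after their values were seen. Of 51 genes of G2 and mitosis 10 fell, led by Mki67 (-1.53), Cenpe (-1.05) and Dlgap5 (-0.99), and 5 rose, Bub1 (0.76), Ect2 (0.72), Cdk1 (0.63), Ndc80 (0.60) and Tacc3 (0.40), named after their values were seen, with a median of 0.05. Of 14 neuroblast markers 10 rose and 1 fell (sums of 10732 to 13100 CPM at day 2 and 9019 to 11070 in Ki67-RFP), and of 11 progenitor markers 8 were tested and 4 fell (664 to 764 CPM at day 2 and 988 to 1099 in Ki67-RFP). Of 11 microglia markers 8 were tested and 3 fell (36.2 to 2084 CPM at day 2 and 484 to 869 in Ki67-RFP). Whether these shifts bear on the result was not tested, and with no flow cell named for day 2 a flow cell difference cannot be told apart from the sort.

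**Figure D3:**
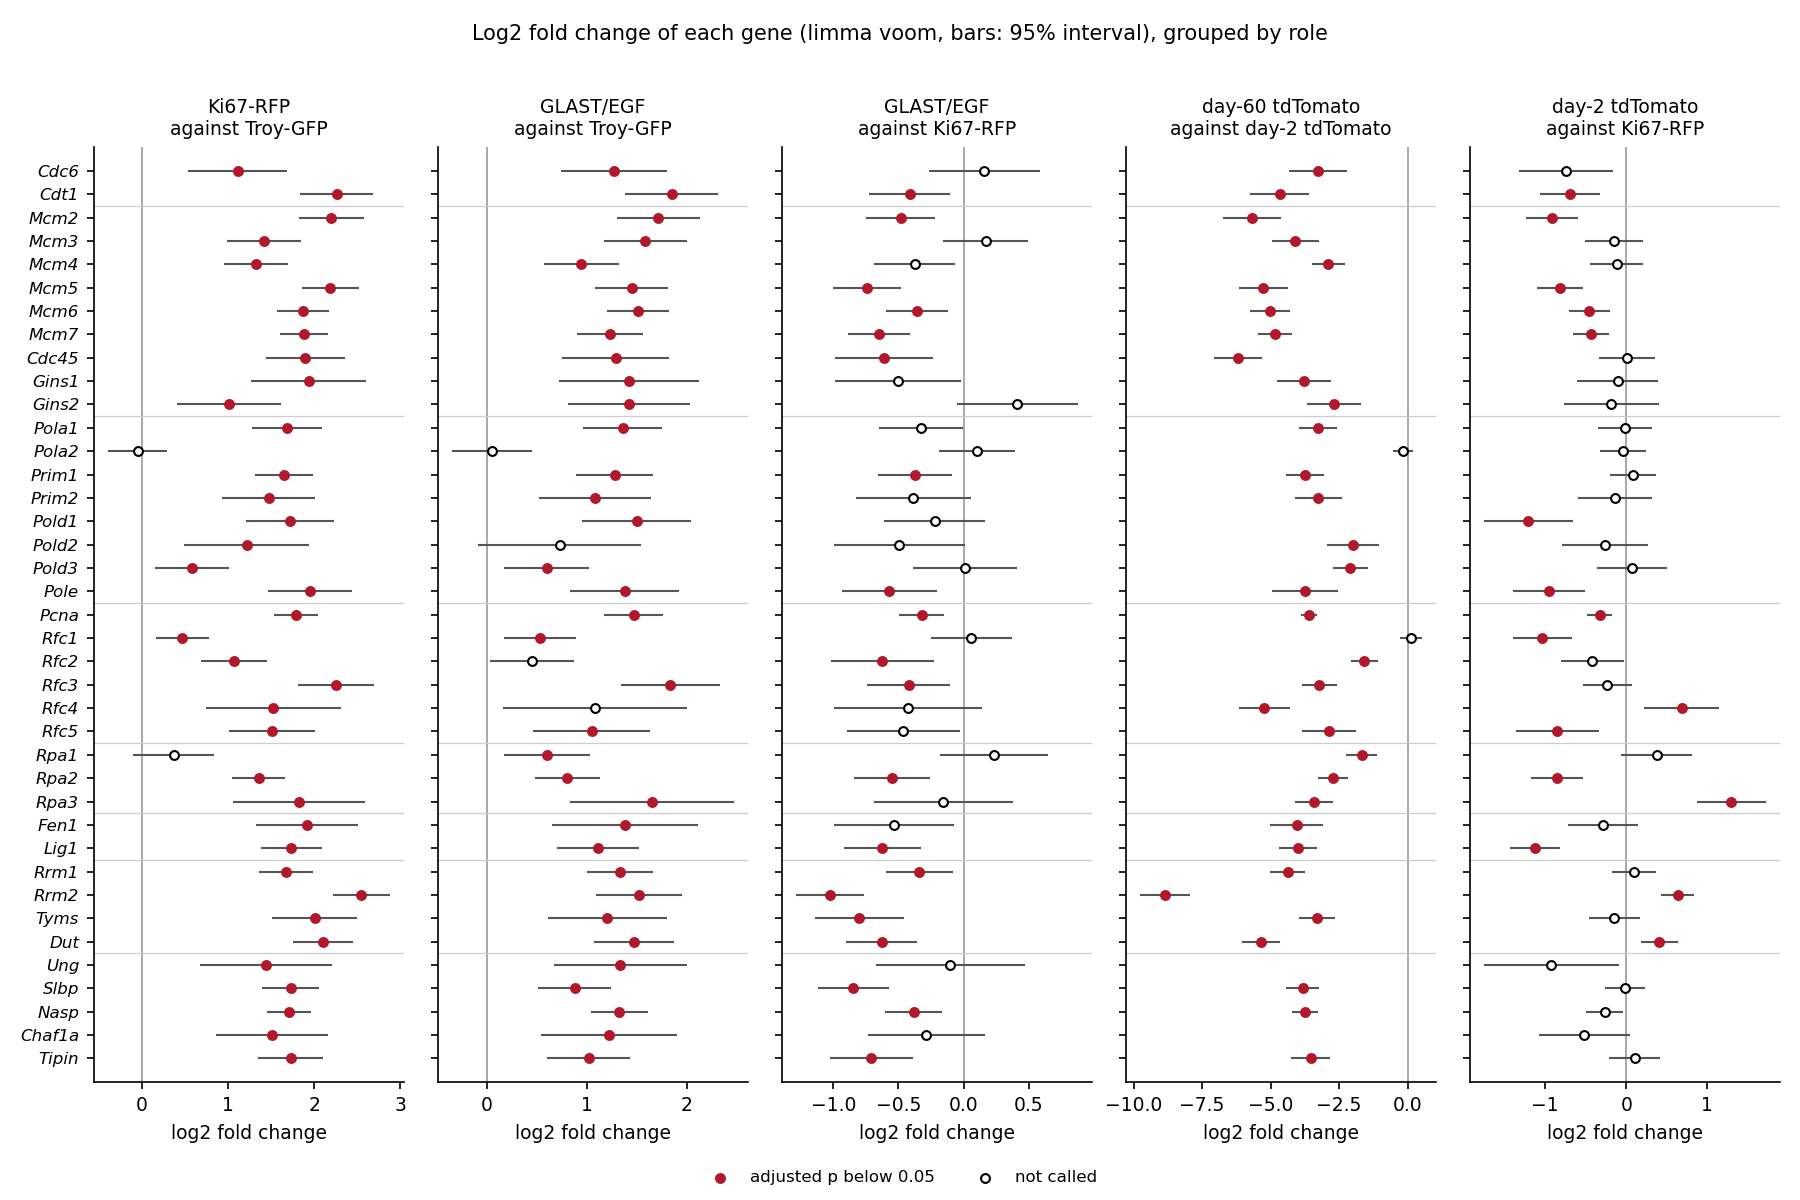
Log2 fold change of each of the 39 genes in 5 comparisons of sorts, with the 95% interval, in order of role; filled points have an adjusted p below 0.05 and genes too low to test have no point. Pola2 lies near 0 in every panel, and in the panel of day 2 against Ki67-RFP the points of Rpa3, Rfc4, Rrm2 and Dut lie to the right of 0.

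Cells were grouped without the 39 genes, the other replication genes and the genes of G2 and mitosis, and classes were named from marker genes. Cell cycle genes outside these lists, such as Ccnd2, were not left out. Day-60 tdTomato held 289 NSC-like, 0 progenitor-like and 2 neuroblast-like cells of 349, and day-2 tdTomato 6 NSC-like, 10 progenitor-like and 197 neuroblast-like cells of 220. GLAST/EGF held 98 NSC-like, 62 progenitor-like and 40 neuroblast-like cells of 216. Ki67-RFP held 1 NSC-like, 47 progenitor-like and 255 neuroblast-like cells of 315, and Troy-GFP 226 NSC-like, 32 progenitor-like and 13 neuroblast-like cells of 311. NSC-like markers are shared by astrocytes, so this class holds astroglial cells in general. Neuroblast-like cells were called dividing with at least 3 transcripts of 12 mitosis genes, which gave 373 of 524 cells; 26 stood at 3 and 31 at 2 transcripts, so the class is a range and not a type. Class levels are CPM of summed cells in libraries with at least 5 cells of the class, with no test.

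Dividing neuroblast-like cells held 10021 ± 947 CPM of the 39 genes (SD over 13 libraries, 354 cells), progenitor-like cells 7845 ± 1284 (12 libraries, 141 cells; 5096 with a minimum of 500 transcripts per cell) and NSC-like cells 851 ± 305 (16 libraries, 644 cells). Neuroblast-like cells under the mitosis limit held 2946 ± 817 (7 libraries, 139 cells). Within single sorts, progenitor-like cells held 7525 ± 1055 CPM in GLAST/EGF, 8011 ± 1188 in Ki67-RFP and 7999 ± 1820 in Troy-GFP, values within their spread. NSC-like cells held 673 ± 60.4 CPM in day-60 tdTomato, 1157 ± 343 in GLAST/EGF and 874 ± 115 in Troy-GFP.

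Among these 3 classes 29 of the 39 genes were highest in dividing neuroblast-like cells and 10 in progenitor-like cells, and none in NSC-like cells. These means join different sorts: 4 of the 13 dividing neuroblast-like libraries are of day 2, which gave no progenitor-like library, and dividing neuroblast-like cells were chosen by mitosis transcripts while progenitor-like cells were not. Within GLAST/EGF alone, 34 genes were higher in dividing neuroblast-like and 5 in progenitor-like cells, and within Ki67-RFP 25 were higher in dividing neuroblast-like and 14 in progenitor-like cells (4 libraries each). The 10 were the licensing gene Cdc6, the helicase genes Gins2, Mcm2, Mcm3 and Mcm4, the polymerase gene Pold2, the loader genes Rfc1 and Rfc2, Rpa2 and Ung. Most of these differences were small beside the SD: Mcm2 held 216 ± 45.3 CPM in dividing neuroblast-like, 259 ± 86.1 in progenitor-like and 7.28 ± 15.7 in NSC-like cells. Ung differed more, with 35.4 ± 26.97 CPM in dividing neuroblast-like, 98.0 ± 41.8 in progenitor-like and 2.14 ± 4.05 in NSC-like cells. By sort, Ung held 80.5 ± 32.1 CPM in progenitor-like and 52.2 ± 25.2 in dividing neuroblast-like cells of GLAST/EGF, and 138 ± 32.9 in progenitor-like and 37.7 ± 18.1 in dividing neuroblast-like cells of Ki67-RFP.

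The nucleotide supply genes leaned to dividing neuroblast-like cells. Rrm2 held 893 ± 373 CPM there, 266 ± 67.8 in progenitor-like and 12.04 ± 16.7 in NSC-like cells. Dut held 405 ± 130 CPM in dividing neuroblast-like, 209 ± 38.6 in progenitor-like and 17.3 ± 19.7 in NSC-like cells, and Tyms 199 ± 48.4 in dividing neuroblast-like, 90.8 ± 47.9 in progenitor-like and 25.5 ± 21.9 in NSC-like cells. The gap for Rrm2 was present within sorts: dividing neuroblast-like and progenitor-like cells held 609 ± 164 and 275 ± 90.3 CPM in GLAST/EGF, and 686 ± 41.5 and 276 ± 55.7 CPM in Ki67-RFP. Rpa3 held 107 ± 48.96 CPM in dividing neuroblast-like, 32.9 ± 27.8 in progenitor-like and 9.42 ± 7.34 in NSC-like cells. Within GLAST/EGF it held 89.04 ± 17.05 CPM in dividing neuroblast-like and 33.1 ± 22.3 in progenitor-like cells, and within Ki67-RFP 58.2 ± 10.2 in dividing neuroblast-like and 37.3 ± 41.2 in progenitor-like cells, the Ki67-RFP difference being within its spread. Pcna was closer between the first 2 classes, with 1929 ± 320 CPM in dividing neuroblast-like, 1604 ± 340 in progenitor-like and 106 ± 55.8 in NSC-like cells.

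Pola2 and Rfc1 departed from the remaining genes by class as they did by sort. Pola2 held 232 ± 59.9 CPM in dividing neuroblast-like, 251 ± 38.6 in other neuroblast-like, 199.97 ± 64.9 in progenitor-like and 184 ± 65.9 in NSC-like cells. Rfc1 held 139 ± 57.1 CPM in dividing neuroblast-like, 162 ± 43.5 in progenitor-like and 77.5 ± 23.5 in NSC-like cells.

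**Figure D4:**
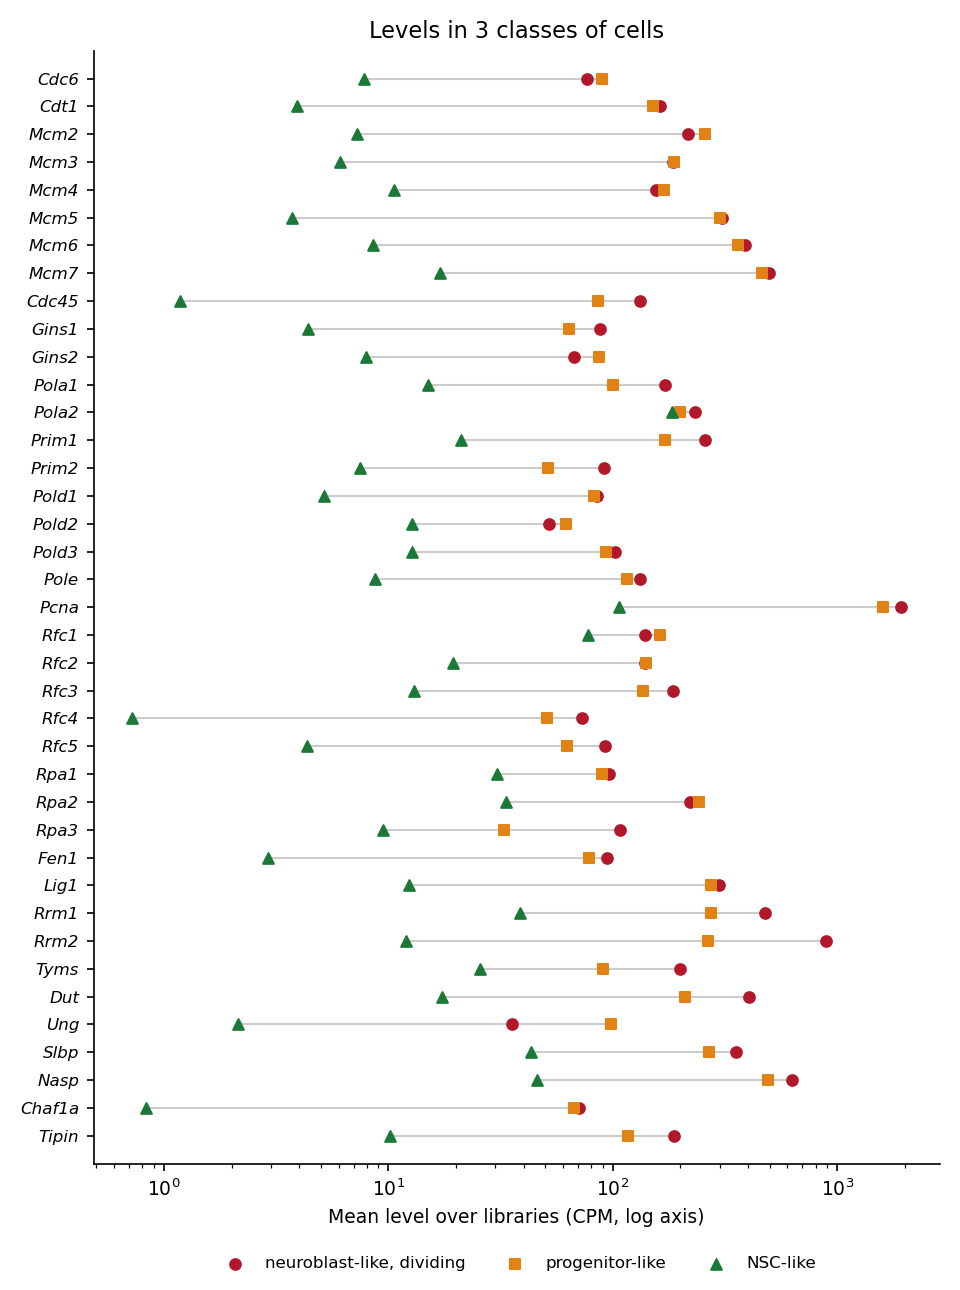
Mean level (CPM, log axis) of each of the 39 genes in dividing neuroblast-like (13 libraries), progenitor-like (12 libraries) and NSC-like cells (16 libraries). The NSC-like mean is the lowest of the 3 for all 39 genes, and the 3 points of Pola2 nearly coincide.

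The neuroblast-like clusters differed in the 39 genes, which were left out of the clustering, while cell cycle genes outside the lists, such as Ccnd2, were not. The cluster led by Mcm2, Mcm5 and Pcna held 10782 CPM of the 39 genes and the one led by Top2a and Rrm2 11440, against 7011 in the one led by Ube2c and Cenpa and 2420 in the one led by Nrep and Dcx. Mcm2, Mcm5, Pcna and Rrm2 are among the 39 genes, so these sums in part restate which genes lead the clusters. As a description, Rpa3, Dut, Tyms and Slbp, which lead none of these clusters, had their highest mean in the second, at 159 ± 90.6, 537 ± 122, 283 ± 57.5 and 439 ± 82.4 CPM. Day-2 tdTomato placed 12, 25, 47 and 113 of its cells in these 4 clusters, in the order given, and Ki67-RFP 61, 73, 91 and 30.

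Day 2 and Ki67-RFP were then compared in neuroblast-like cells summed per library, a class that different clusters fill in the 2 sorts: the one led by Nrep and Dcx held 113 of 197 cells at day 2 and 30 of 255 in Ki67-RFP. Of 38 genes tested 4 rose and 13 fell at day 2, among 29.4% of all genes called, 14.5% higher and 14.9% lower, with a median of -0.30 against 0.00 over all genes (limma voom, n = 4 libraries each). Rrm2 held 951, 865, 1100 and 1005 CPM in day-2 neuroblast-like cells, against 660, 611, 650 and 649 in those of Ki67-RFP, a log2 fold change of 0.59 ± 0.09 (adjusted p = 5.98e-06). Rpa3 held 120, 105, 144 and 133 CPM at day 2, against 47.8, 51.6, 50.9 and 66.8 in Ki67-RFP (1.18 ± 0.21), and Lig1 146, 134, 144 and 177 CPM at day 2, against 430, 307, 293 and 351 in Ki67-RFP (-1.20 ± 0.16, adjusted p = 2.01e-07). For none of these 3 genes did the libraries overlap. Rfc4 (0.69 ± 0.25) and Dut (0.33 ± 0.12) also rose. The falls included Pold1 (-1.22 ± 0.32), Rfc1 (-1.10 ± 0.21), Cdc6 (-0.97 ± 0.35), Pole (-0.97 ± 0.23), Rpa2 (-0.95 ± 0.17), Rfc5 (-0.88 ± 0.28), Cdt1 and Mcm5 (both -0.84, SE 0.21 and 0.15) and Mcm2 (-0.80 ± 0.17).

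Thinned to 1000 transcripts per cell, the fold changes in neuroblast-like cells were -0.30 for Rrm2 (limma adjusted p = 0.267) and -0.52 for Dut (0.151), again turned round. With both sorts limited to dividing neuroblast-like cells, 5 genes rose and 6 fell of 38, against 10.1% of all genes called higher and 11.9% called lower, a choice made after seeing the data. Rrm2 then held 1297, 1303, 1496 and 1513 CPM at day 2, against 708, 625, 714 and 699 in Ki67-RFP (0.98 ± 0.10), and Tipin (0.46), Rpa3 (1.42), Rfc4 (0.94) and Dut (0.66) rose with it. Rfc1 (-1.06), Lig1 (-0.99), Rpa2 (-0.81), Pole (-0.63), Mcm2 and Mcm5 (both -0.53) fell. Of the 17 calls in all neuroblast-like cells 12 held in every fit that left out 1 library; Cdc6, Dut, Mcm6, Rfc4 and Rfc5 lost theirs in at least 1, with limma adjusted p up to 0.152.

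Progenitor-like cells of GLAST/EGF were set against those of Ki67-RFP in the same way. None of the 31 genes tested was called (limma voom with Benjamini-Hochberg adjustment), against 5.08% of all genes, 2.68% higher and 2.40% lower, and their median was -0.05 against 0.00 over all genes. Unadjusted p lay below 0.05 for 4 of them, Ung (-0.94 ± 0.32, adjusted p = 0.0973), Pola2 (0.68 ± 0.26, 0.141), Mcm7 (-0.50 ± 0.20, 0.163) and Mcm5 (-0.57 ± 0.27, 0.252). A missing call does not show that the levels are alike: the SE was 0.25 for Rrm2 (-0.06) and 0.43 for Cdc6 (0.07). Of 29 genes of G2 and mitosis 3 fell, Cenpa, Cdca8 and Hmgb2. In clusters built with cell cycle genes kept, 4 of 28 genes fell, Mcm2, Mcm5, Mcm7 and Rpa2, against 10.2% of all genes called and 6.04% called lower.

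In NSC-like cells few of the 39 genes were high enough to test. Between GLAST/EGF and Troy-GFP NSC-like cells 4 were tested (Pola2, Pcna, Rfc1 and Nasp) and none was called by limma voom, against 0.0660% of all genes; Nasp alone had an unadjusted p below 0.05 (0.79 ± 0.35, adjusted p = 0.481). Between day-60 tdTomato and Troy-GFP NSC-like cells 6 were tested and none was called by limma voom, against 2.78% of all genes. Rpa2 alone had an unadjusted p below 0.05 (-1.06 ± 0.37, limma adjusted p = 0.120), and Pcna had a fold change of -0.41 ± 0.21 (0.358).

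Single cells were compared after thinning each to 1000 transcripts (plot of transcripts per cell). At least 5 transcripts of the 39 genes were found in 184 of 315 Ki67-RFP cells (58.4%, exact 95% interval 52.8% to 63.9%, 56.2% to 60.2% over libraries), 34.1% of 220 day-2 cells, 32.4% of 216 GLAST/EGF cells and 9.003% of 311 Troy-GFP cells. None of 349 day-60 cells reached 5, which allows a share of up to 0.860% by a limit of 3 cells (exact 95% upper limit 1.05%). These limits and intervals treat cells as independent and cover the sampling of cells only, not the spread between mice. Within classes, the share was 58.1% in GLAST/EGF, 55.3% in Ki67-RFP and 59.4% in Troy-GFP for progenitor-like cells (62, 47 and 32 cells). For neuroblast-like cells it was 69 of 197 in day-2 tdTomato, 32 of 40 in GLAST/EGF and 158 of 255 in Ki67-RFP. Of the NSC-like cells 1 of 98 reached 5 in GLAST/EGF and 0 of 226 in Troy-GFP, which allows up to 1.33% by the same limit of 3 cells (exact 95% upper limit 1.62%). Unthinned, at least 1 transcript of the 39 genes was present in 91.7% to 94.2% of NSC-like cells of the 3 sorts and in all progenitor-like cells, with median depths of 4196 to 5400 and of 8722 to 9561 transcripts, so presence alone did not separate them.

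Across thinned cells, Spearman's rho between the summed 39 genes and the summed genes of G2 and mitosis was 0.54 in day-2 tdTomato (220 cells), 0.57 in GLAST/EGF (216), 0.20 in Ki67-RFP (315) and 0.29 in Troy-GFP (311). These are descriptions over cells that share libraries and depth. In Ki67-RFP, Pcna had a rho of 0.62 with the other 38 genes and 0.09 with the genes of G2 and mitosis. The values were 0.33 and 0.24 for Rrm2, 0.39 and 0.07 for Lig1, and 0.02 and -0.11 for Pola2. Pcna was found in 60.6% of these thinned cells, Rrm2 in 33.3% and Rfc4 in 1.27%, so the correlations of scarce genes rest on few cells.

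**Figure D5:**
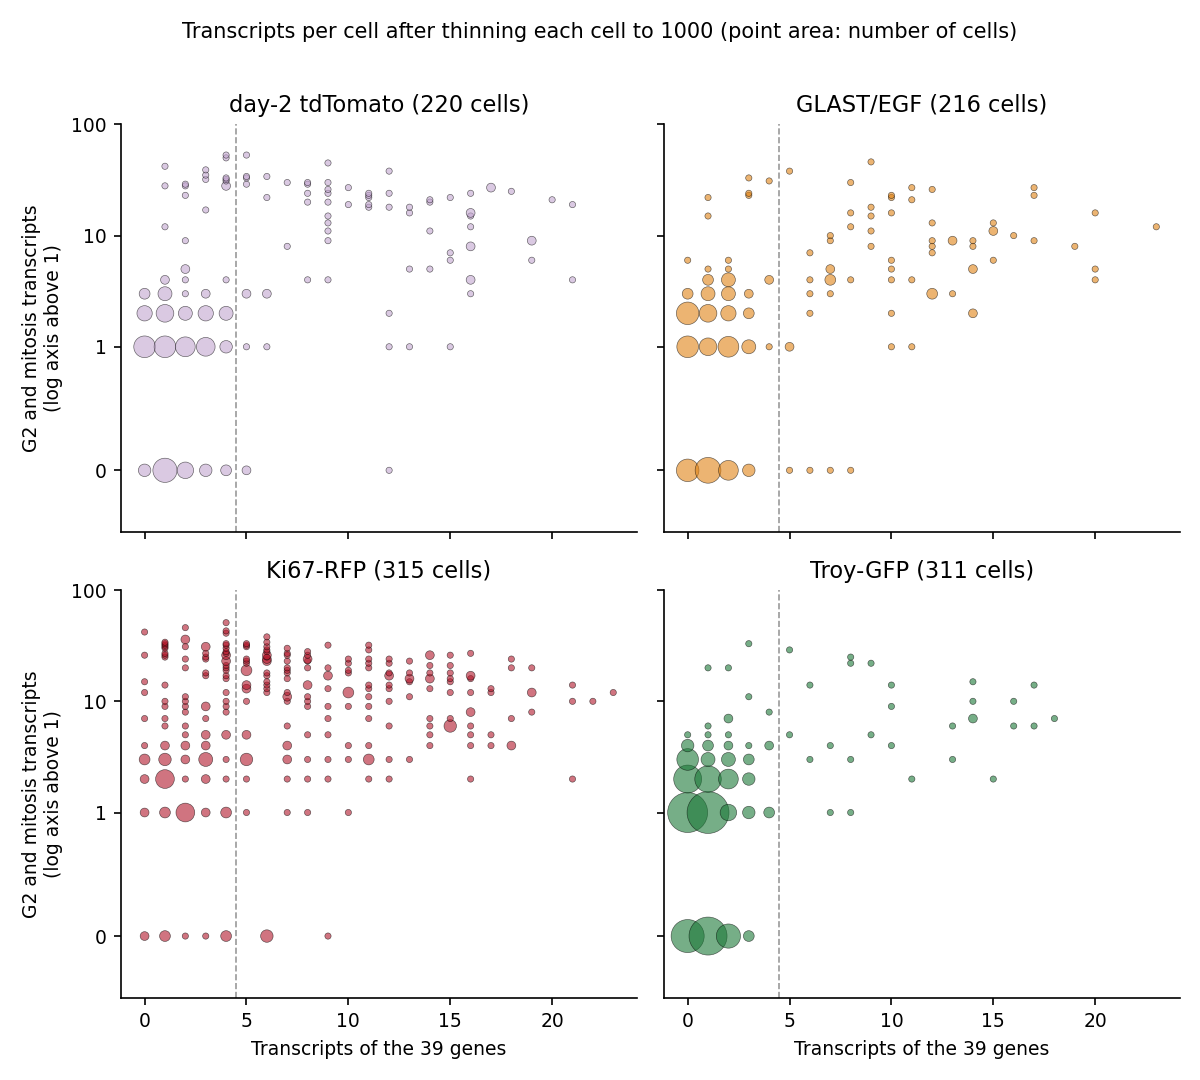
Transcripts of the 39 genes (horizontal) and of the genes of G2 and mitosis (vertical, log axis above 1) per cell after thinning to 1000 transcripts, in 4 sorts; point area is the number of cells and the dashed line marks 5 transcripts of the 39 genes. Ki67-RFP has 58.4% of its cells to the right of the line and Troy-GFP 9.003%.

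Some of the 39 genes share sequence with other genes, which matters for reads taken near the 3′ end. Exons of another gene overlap the last 1500 bases on the opposite strand for 7 of them (Mcm7, Gins2, Rfc2, Rfc4, Rfc5, Fen1 and Chaf1a), and how counting used strand is not given in the sources used here. Processed copies by name exist for Pcna, Tyms and Nasp. Values of these 10 genes are less certain for that reason.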

How the data were processed

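Single-cell RNA was measured by SORT-seq, which joins sorting into 384-well plates to CEL-seq, in 28 libraries of 7 sorts. BWA 0.6.2-r126 and mm10 served for mapping, per the submitters' processing notes. The deposited tables give the authors' estimate of transcript molecules per gene and well, a unit recorded here as other: of 4801006 values above 0, 4800995 equalled the collision correction of whole barcodes out of 256 within 1e-06. The values are such estimates and not whole counts, so limma was used and no count model was run. Of the rows, 87 were ERCC spike-in RNA, left out of library sizes (6.57% to 17.7% of transcripts outside Prom1/CD24, 44.3% to 56.8% within), and 0 were mitochondrial genes.

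The 39 genes, the other gene lists and the markers were chosen with earlier results of these data known. Wells with at least 1000 transcripts were cells; doublets were not called, as wells received 1 cell each. Cells were clustered with scanpy 1.11.5 and igraph 0.11.9 (2000 variable genes, 30 components, 15 neighbours, Leiden resolution 1, seed 7). The 39 genes, the other listed cell cycle genes and ribosomal genes were left out, but cell cycle genes outside the lists were not. Clusters took the "-like" name with most markers among their 50 leading genes, at least 3. Transcripts were summed per library, scaled by trimmed mean of M values in R 4.3.3 and tested with limma 3.58.1 (voom). A gene was tested with the equivalent of 10 transcripts at median depth in 4 or more libraries, and 15 over all. It could thus enter through only the group where it was high, which fixed its direction. P-values were adjusted (Benjamini-Hochberg) over all genes tested in a comparison. Simulated data with known changes were made for Ki67-RFP against Troy-GFP, with 8280 genes tested. On them the test recovered 62.1% of 95 genes changed by 1 and 98.9% of 90 genes changed by 2 (log2). Only well-expressed genes were changed, and the spread was set alike for all genes. In the real comparison 60.4% of genes were called, so these shares need not hold there. Values after ± are SE beside fold changes and SD beside levels. For each comparison the text names up to 2 genes per role with the largest change among those called, every gene called against the majority and, where 5 or fewer were not called, those; 9 genes are given by library. Replicate numbers did not pair samples: correlations of same-numbered libraries ran from -0.19 to 0.10. Tests of day-2 against Ki67-RFP progenitor-like cells were not run, with 10 day-2 cells in all. 1 gene outside the 39 is not reported here. The alternatives tried are in the closing section.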

Additional observations from a re-analysis of the deposited data

Results flagged for a closer look

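Of 278 sets of 4 libraries (each of the 39 genes and the summed level in each sort, less 2 sets with all libraries at 0), 13 had 1 library far from the other 3, with a gap above 0.829 of the whole range. Chance gives about 1 in 20, and 13 of 278 is 4.68%.

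In GLAST/EGF, Mcm2 stood at 207.3 CPM in library 2 with the other libraries at 157.8 to 165.3, Prim1 at 196.4 in library 1, and Rfc1 at 110.3 in library 3. In day-60 tdTomato the values are low: Mcm7 stood at 13.87 CPM in library 3, Prim1 at 27.74 in library 3, Pold3 at 11 in library 2, Fen1 at 8.697 in library 1 and Tyms at 23.78 in library 4. Cdc45 and Ung each stood at 2.31 CPM in library 3, from 1 transcript, and at 0 in the other libraries. In the mixed day-60 sort Mcm6 stood at 9.079 CPM in library 4 and Ung at 4.588 in library 1, and in Prom1/CD24 Pold1 stood at 0.0 in library 3.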

How the results depend on the processing

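Over single genes, 2741 of 2917 recomputed values kept direction and side of the threshold, 172 lost the call, and 4 turned round: with cells thinned to 1000 transcripts, Dut (-0.42) and Rrm2 (-0.19) in day-2 tdTomato against Ki67-RFP, and Dut (-0.52) and Rrm2 (-0.30) in neuroblast-like cells. Thinning left 4 to 14 genes to test in the comparisons named next, so counts of called genes fell. Ki67-RFP against Troy-GFP gave 10 of 11 genes tested, against 68.6% of all genes called in that fit. GLAST/EGF gave 3 of 4 against Troy-GFP (18.8% of all genes) and 8 of 14 against Ki67-RFP (51.9%). Day 60 against day 2 gave 8 of 9 (73.8%). Day 2 against Ki67-RFP gave 5 of 12 (30.1%), and the same in neuroblast-like cells 5 of 12 (32%). With all 28 libraries in 1 fit, GLAST/EGF against Ki67-RFP gave 13 called genes (33.3%), all lower. Of all genes 13.4% were called lower there and 32.1% in either direction. Within 1 flow cell, where 2 GLAST/EGF libraries remain, the same comparison gave 7 (17.9%), all lower. Of all genes 9.65% were called lower in that fit and 23.2% in either direction. Limited to dividing cells, the neuroblast-like comparison gave 11. With cell cycle genes kept in clustering the progenitor-like comparison gave 4, against 10.2% of all genes called. With no filter on low sums the NSC-like comparisons gave 3 (GLAST/EGF, 7.69% against 3.59% of all genes) and 1 (day 60, 2.56% against 1.22%). The cause was not tested. Leaving out 1 library at a time gave 36 to 37, 31 to 34, 14 to 23, 35 to 36 and 14 to 18 called genes in the 5 comparisons of sorts, 14 to 17 in neuroblast-like cells and 0 in the others. Shares over all genes are not given for these fits.

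The replicate numbers pair nothing by design. With the replicate number as a block, Ki67-RFP against Troy-GFP gave 37 of 39 genes called, against 60% of all genes. GLAST/EGF gave 34 of 39 against Troy-GFP (28% of all genes) and 17 of 39 against Ki67-RFP (34.7%). Day 60 against day 2 gave 34 of 36 (66%), and day 2 against Ki67-RFP 17 of 39 (26.5%). Neuroblast-like cells gave 16 of 38 (30.1%) and progenitor-like cells 0 of 31 (6.24%). NSC-like cells gave 0 of 4 for GLAST/EGF (0.022%) and 0 of 6 for day 60 (3.74%). Median-of-ratios scaling moved the median of all genes to -0.08 (Ki67-RFP against Troy-GFP), -0.07 (GLAST/EGF against Troy-GFP) and 0.11 (day 60 against day 2). There Rfc1 (0.33 and 0.42), Pold3 (0.44 and 0.49) and, in the second, Rpa1 (0.50) lost their calls.

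Thinned, the summed level was 893 CPM in day-60 tdTomato, 4877 in day-2 tdTomato, 4491 in GLAST/EGF, 7291 in Ki67-RFP, 2051 in Troy-GFP, 1007 in the mixed sort, 1885 in Prom1/CD24 and 8972 in dividing neuroblast-like cells. With a minimum of 500 transcripts per cell, progenitor-like cells held 5096 CPM and the progenitor-like comparison could not be fitted. In the 150 bases before the start, 15.6% of the 32 genes had an E2F match, against 1.44% of all genes. Levels of a few CPM rest on 1 to 3 transcripts, and thinned cells resolve only abundant genes.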
